A study of Mus musculus with 8 samples.

Results

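The genes described here are Myc, the polyamine synthesis genes Srm and Odc1, the pyrimidine synthesis gene Cad, and the nucleolar factors Ncl, Npm1, Fbl, Nop56, Nop58 and Nolc1. They are 10 of the 49671 genes in the count table of mouse liver RNA-seq, taken by symbol from the GRCm38 annotation, and all 10 passed the filter on low counts. They were chosen by their CPM, read counts scaled to the size of the library, in all 8 libraries across the 4 groups, so their levels and fold changes are a description of these libraries, with no test, and nothing is supported with them. The scaling used TMM factors, which make the bulk of genes comparable between libraries.

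The libraries were made from total liver RNA of C57BL/6 mice of post-weaning age, with 2 libraries for each of the groups female NT-KO, female WT, male NT-KO and male WT. NT-KO mice were homozygous for a deletion around the start codon of Lbr, the gene of the lamin B receptor, an inner nuclear membrane protein that tethers chromatin and has a sterol reductase domain. The allele was made by genome editing, descends from 1 male founder backcrossed to C57BL/6N, and is carried by every tissue; WT mice lacked it, and no other allele or treatment is given for any group. The labels number the libraries but do not say that each came from a separate animal, so p-values measure only the spread between these libraries, which may be technical.

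Total counts ran from 45020377 to 64396291 per library, and log2 CPM of the 2 replicates of a group correlated across genes at 0.97 to 0.98. The replicates of every group differed by far more than sampling noise, with a chi-square of 112 to 278 per degree of freedom. The hepatocyte markers summed to 86215 CPM or more in every library, and Xist and Y-linked genes matched the labelled sex in all 8. The deletion lies at the 5′ end of Lbr, so its gene count does not check the genotype; it was 7.08 to 8.66 CPM in the 4 WT libraries and 13.8 to 15.2 CPM in the 4 NT-KO libraries. Both male WT libraries stood apart. Endoplasmic reticulum (ER) chaperones summed to 5392 CPM in male WT replicate 1 and 11129 CPM in male WT replicate 2, against 3313 to 4042 CPM in the other 6, and heat shock genes to 3223 and 4658 CPM against 1784 to 2462 CPM. Each male fold change of the 10 genes is therefore also given as its range over fits that leave out a library.

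Myc is a transcription factor that pairs with Max, binds E-box motifs and raises the output of genes for ribosomes, nucleotides and polyamines, the supplies a growing cell needs. In resting liver it is low, and it is induced early when hepatocytes re-enter the cell cycle, for example after partial hepatectomy. Its messenger RNA is short-lived. Ribosomes are assembled in the nucleolus, where RNA polymerase I transcribes the ribosomal RNA, small nucleolar RNPs (snoRNPs) guide its chemical modification, and processing factors cut it into the RNAs of the small and large subunits.

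Promoter sequence was matched for 6 of the 10 genes in the RefSeq-based promoter table of build GRCm38.p6, Odc1, Cad, Ncl, Nop56, Nop58 and Nolc1, and not for Myc, Srm, Npm1 and Fbl. The 250 bases before each RefSeq start were searched on both strands for the canonical E-box CACGTG, the variant E-box CACGCG, the GC box GGGCGG and the TATA box TATAAA. Odc1 and Cad are shown because they stood among the widest differences between male groups, Nolc1 because its NT-KO libraries lay below WT in males and above WT in females, and Ncl because its male group means were nearly equal. Capitals mark a motif on either strand, each sequence is written 5′ to 3′ on the strand of its gene, and stretches that are exons of coding transcripts in GENCODE are left out, namely the 79 bases next to the start for Odc1 and the end of the neighbouring gene Atraid for Cad.
Odc1, GRCm38 chr12:17544623-17544793, plus strand: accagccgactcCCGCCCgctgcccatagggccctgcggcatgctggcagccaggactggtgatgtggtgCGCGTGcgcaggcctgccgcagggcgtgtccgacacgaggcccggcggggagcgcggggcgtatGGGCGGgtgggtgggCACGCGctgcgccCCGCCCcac
Cad, GRCm38 chr5:31054624-31054779, plus strand: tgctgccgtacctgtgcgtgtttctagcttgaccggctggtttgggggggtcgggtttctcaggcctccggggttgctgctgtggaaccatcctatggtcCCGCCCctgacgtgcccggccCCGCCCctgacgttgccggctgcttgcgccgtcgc
Nolc1, GRCm38 chr19:46075597-46075846, plus strand: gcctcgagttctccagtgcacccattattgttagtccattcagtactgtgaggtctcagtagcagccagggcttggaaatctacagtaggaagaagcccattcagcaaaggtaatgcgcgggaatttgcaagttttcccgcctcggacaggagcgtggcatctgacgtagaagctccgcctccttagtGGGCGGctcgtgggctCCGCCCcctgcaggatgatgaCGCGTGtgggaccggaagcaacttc
Ncl, GRCm38 chr1:86359456-86359705, minus strand: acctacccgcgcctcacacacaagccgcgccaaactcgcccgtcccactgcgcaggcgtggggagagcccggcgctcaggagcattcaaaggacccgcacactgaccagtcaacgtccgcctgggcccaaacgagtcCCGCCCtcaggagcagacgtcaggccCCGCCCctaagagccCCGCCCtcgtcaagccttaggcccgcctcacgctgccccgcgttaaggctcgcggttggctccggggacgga

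No canonical E-box was found in any of the 6 windows of 250 bases, and 6.02% of all 32851 promoters in the table held it. The variant CACGCG was found at 2 places in Odc1, which both lie in the stretch shown, and at 1 place in Nolc1, against 7.62% of all promoters with it. GC boxes were present in all 6, with 4 in Odc1, 3 in Ncl, 2 each in Cad and Nolc1 and 1 each in Nop56 and Nop58, where 32.7% of all promoters held at least 1. No window held TATAAA, which 12.4% of all promoters did. The windows held 80.0% G and C in Odc1, 69.6% in Ncl, 65.2% in Nop56, 58.8% in Cad, 56.4% in Nolc1 and 41.2% in Nop58. The median over all promoters was 52.4%. The fitted male log2 fold changes, NT-KO minus WT, were -0.75 for Odc1, -0.02 for Ncl and -1.35 for Cad. They were -0.46 for Nolc1, -0.49 for Nop56 and -0.51 for Nop58. A relation between motifs and fold changes was not tested. Matches are letters in a window and say nothing of binding, and sites outside the window, such as those in introns, were not searched.

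Myc (ENSMUSG00000022346, GRCm38 chromosome 15, 61985391 to 61990374, plus strand) had by far the widest range of the 10 genes, 20.1-fold between its highest and lowest library. Its level was 42.0 CPM in male WT replicate 1, 2.66 CPM in male WT replicate 2, and 3.70 and 2.08 CPM in the male NT-KO libraries. It was 7.31 and 3.39 CPM in WT females and 7.11 and 2.27 CPM in NT-KO females. Male WT replicate 1 was therefore alone at a high level, the other male WT library lay between the male NT-KO libraries, and the 2 female groups overlapped. In raw counts, Myc was counted 2196 times in male WT replicate 1 and 101 to 374 times in the other 7 libraries.

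The fitted log2 fold change of Myc in males, NT-KO minus WT, was -2.95 ± 1.10 (SE, n = 2 and 2), and it rested on that library: it was 0.12 without male WT replicate 1, and with replicate 2 left out instead it was -3.86. On the CPM scale the male WT mean was 7.71 times the male NT-KO mean, 0.919 times without replicate 1 and 14.5 times without replicate 2. In females it was -0.19 ± 1.04, and ranged from -1.23 to 0.47 as each library was left out, so its direction in females also depended on single libraries. The library numbered 1 had the higher Myc level in all 4 groups, by 15.8-fold in WT males, 1.78-fold in NT-KO males, 2.16-fold in WT females and 3.13-fold in NT-KO females. Averaged per library on the log2 scale, the male difference was -1.92, and with the replicate number as a block it was -2.02. In bulk tissue, fewer cells of a type and less RNA per cell cannot be told apart.

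**Figure D1:**
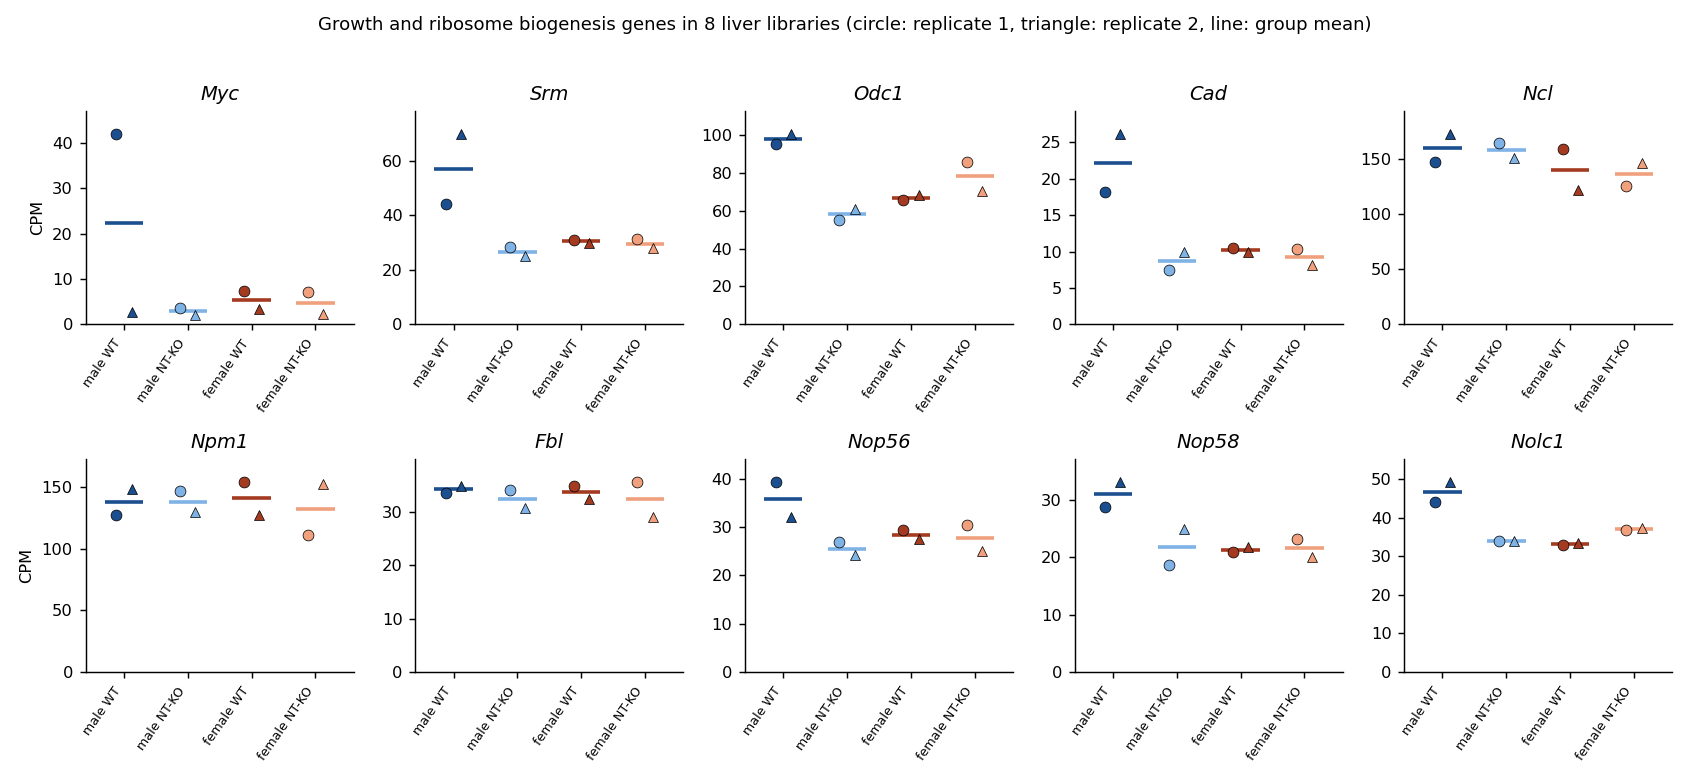
CPM (y axis, from 0) of each of the 10 genes in the 8 libraries by group (x axis), with circles for replicate 1, triangles for replicate 2 and a line at each group mean. Myc is high in male WT replicate 1 alone, at 42.0 CPM, while Srm, Odc1, Cad, Nop56, Nop58 and Nolc1 lie above the male NT-KO libraries in both male WT libraries.

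Other values set male WT replicate 1 apart as well. The erythroid markers, which include the globins and Alas2, summed to 956 CPM there against 166 to 453 CPM in the other 7 libraries, and the Kupffer cell markers to 134 CPM against 179 to 302 CPM. Immediate early genes, which like Myc answer fast to stimuli, were not highest there as a sum: they came to 151 CPM in male WT replicate 1 and ran from 103 CPM in male WT replicate 2 to 289 CPM in female NT-KO replicate 1. Fos, one of them, was highest there, at 4.47 CPM against 0.971 CPM in male WT replicate 2. It was at 2.05 and 1.28 CPM in NT-KO males, 1.47 and 0.668 CPM in WT females, and 3.12 and 0.828 CPM in NT-KO females, so like Myc it was higher in the library numbered 1 of every group. Proliferation genes summed to 44.1 CPM there and to 26.6 to 50.2 CPM in the other 7 libraries. The part of these genes and cells in the Myc level was not tested.

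The genes with the profile most like that of Myc, by Pearson's r of log2 CPM over the 8 libraries, were Bcl2l1 (0.97), Cish (0.97), Chsy1 (0.96), Arid5a (0.95) and Foxq1 (0.95). The 8 points share male WT replicate 1, where all 5 were highest. Cish, a STAT5-induced inhibitor of cytokine signalling, was at 86.6 CPM in that library, at 12.2 CPM in male WT replicate 2, at 14.8 and 7.10 CPM in NT-KO males, at 28.5 and 16.9 CPM in WT females, and at 32.6 and 7.93 CPM in NT-KO females. Like Myc, to which it was matched by profile, it was higher in the library numbered 1 of every group. Foxq1, a forkhead transcription factor, was at 60.3 CPM in male WT replicate 1 and at 5.68 to 22.5 CPM in the others. Without male WT replicate 1, r with Myc over the remaining 7 libraries was 0.97 for Cish, 0.91 for Chsy1, 0.89 for Bcl2l1, 0.88 for Foxq1 and 0.77 for Arid5a.

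The partners and antagonists of Myc did not share its range. Of the 14 genes of this network listed, 13 were tested and Mxd3 was under the filter. Max, with which Myc must pair to bind DNA, was at 18.7 to 24.6 CPM in all 8 libraries, a 1.32-fold range. The antagonists of Myc at Max, Mxd1, Mxd4, Mxi1, Mnt and Mga, ranged over 1.44-fold to 1.92-fold. Mlx, Mlxip and Mlxipl, the branch of the network that answers to glucose, ranged over 1.66-fold, 1.81-fold and 1.49-fold. Zbtb17, through which Myc represses genes, ranged over 1.23-fold and Fbxw7, the ubiquitin ligase subunit that marks Myc protein for decay, over 1.46-fold. The paralog Mycl was at 17.9 CPM in male WT replicate 1 and 3.45 to 9.11 CPM elsewhere, so it too was highest in that library, and Mycn ran from 0.207 to 2.27 CPM. In males 9 of the 13 had a negative and 4 a positive fold change, and 1, Mxd4, was lower at an unadjusted p under 0.05 by edgeR's quasi-likelihood test, where 5.5% of all 13117 tested genes were lower and 6.03% higher. Without TMM scaling, on total counts alone, 8 were negative and 5 positive, with 0 lower and 0 higher at that threshold. Mxd4 was at 76.4 and 66.5 CPM in WT males and 48.5 and 55.4 CPM in NT-KO males.

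Srm (ENSMUSG00000006442, chromosome 4, 148591503 to 148594993, plus strand) encodes spermidine synthase, which makes spermidine from putrescine. It was at 44.0 and 70.0 CPM in male WT replicates 1 and 2, at 28.3 and 24.9 CPM in NT-KO males, at 31.1 and 29.9 CPM in WT females, and at 31.2 and 27.9 CPM in NT-KO females. Both male WT libraries lay above all other 6, and replicate 2 was 1.59 times replicate 1. The fitted male log2 fold change was -1.10 ± 0.22 (SE, n = 2 and 2), or 2.14-fold higher in WT, and the female one was -0.05 ± 0.22. Left out in turn, the male libraries gave -1.40 to -0.73, with the smallest value without male WT replicate 2.

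Odc1 (ENSMUSG00000011179, chromosome 12, 17544794 to 17551505, plus strand) encodes ornithine decarboxylase, the enzyme that makes putrescine and sets the pace of polyamine synthesis. Its levels were 95.3 and 100.7 CPM in WT males, 55.2 and 61.1 CPM in NT-KO males, 65.7 and 68.3 CPM in WT females, and 85.9 and 70.4 CPM in NT-KO females. Both male WT libraries were the highest of the 8 and close together, the male NT-KO libraries were the lowest of the 8, and in females both NT-KO libraries lay above both WT libraries. The log2 fold change was -0.75 ± 0.16 in males, 1.68-fold higher in WT, and 0.22 ± 0.16 in females. The male value stayed between -0.83 and -0.68 as each library was left out, and the female one between 0.07 and 0.36.

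Cad (ENSMUSG00000013629, chromosome 5, 31054780 to 31078479, plus strand) encodes the multifunctional enzyme that begins the synthesis of pyrimidine nucleotides. Its levels were 18.1 and 26.2 CPM in WT males, 7.42 and 9.95 CPM in NT-KO males, 10.5 and 9.93 CPM in WT females, and 10.4 and 8.21 CPM in NT-KO females. Here too both male WT libraries stood above the other 6, with replicate 2 higher by 1.44-fold, and the female groups overlapped. The male log2 fold change was -1.35 ± 0.24, or 2.55-fold higher in WT, with a range of -1.59 to -1.06 over the fits without each library. The female one was -0.14 ± 0.23.

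Among the nucleolar factors, the male groups were apart for 3 and overlapped for 3. Over all tested genes, both male NT-KO libraries were below both male WT libraries in 19.2% and above them in 19.6%. Nop56 (ENSMUSG00000027405, chromosome 2, 130274430 to 130279313, plus strand) and Nop58 (ENSMUSG00000026020, chromosome 1, 59684971 to 59719044, plus strand) are core proteins of the box C/D snoRNPs, which guide methylation of ribosomal RNA. Nop56 was at 39.4 and 32.1 CPM in WT males, 26.8 and 24.1 CPM in NT-KO males, 29.3 and 27.5 CPM in WT females, and 30.4 and 25.0 CPM in NT-KO females. Its fitted fold change on the log2 scale was -0.49 ± 0.17 in males and -0.04 ± 0.17 in females. Nop58 was at 28.7 and 33.2 CPM in WT males, 18.6 and 25.0 CPM in NT-KO males, 20.8 and 21.7 CPM in WT females, and 23.2 and 20.1 CPM in NT-KO females. The corresponding values were -0.51 ± 0.19 and 0.03 ± 0.18. For both genes the male WT libraries were the 2 highest of the 8 and the female groups overlapped. The male value ranged from -0.63 to -0.34 for Nop56 and from -0.74 to -0.31 for Nop58 as each library was left out.

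Nolc1 (ENSMUSG00000015176, chromosome 19, 46075863 to 46085530, plus strand) encodes Nopp140, a chaperone of snoRNPs that moves between the nucleolus and Cajal bodies. It was at 44.2 and 49.4 CPM in WT males, 33.9 and 33.8 CPM in NT-KO males, 32.9 and 33.4 CPM in WT females, and 36.8 and 37.3 CPM in NT-KO females. Replicates lay close together, the male WT libraries were again the 2 highest, and in females both NT-KO libraries were above both WT libraries. The log2 fold change was -0.46 ± 0.14 in males, 1.38-fold higher in WT, and 0.16 ± 0.13 in females, and no library left out turned either (-0.54 to -0.38 and 0.15 to 0.17).

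The other 3 nucleolar factors gave another picture. Ncl (ENSMUSG00000026234, chromosome 1, 86344719 to 86359400, minus strand), nucleolin, which acts in ribosomal RNA transcription and processing, was at 146 and 172 CPM in WT males, 164 and 150.4 CPM in NT-KO males, 158 and 121 CPM in WT females, and 125 and 146 CPM in NT-KO females. Npm1 (ENSMUSG00000057113, chromosome 11, 33152287 to 33163206, minus strand), nucleophosmin, which acts in late ribosome assembly and export, was at 128 and 149 CPM in WT males, 147 and 129.5 CPM in NT-KO males, 155 and 128 CPM in WT females, and 111 and 153 CPM in NT-KO females. Fbl (ENSMUSG00000046865, chromosome 7, 28169710 to 28179269, plus strand), fibrillarin, the methyltransferase of the box C/D snoRNPs, was at 33.6 and 35.0 CPM in WT males, 34.1 and 30.8 CPM in NT-KO males, 34.9 and 32.4 CPM in WT females, and 35.7 and 29.0 CPM in NT-KO females. All 3 overlapped between WT and NT-KO in both sexes. Their male log2 fold changes were -0.02 ± 0.19 for Ncl, 0.00 ± 0.21 for Npm1 and -0.08 ± 0.16 for Fbl, and their female ones -0.04 ± 0.19, -0.10 ± 0.21 and -0.06 ± 0.16. With each library left out, the male values ran from -0.13 to 0.10, from -0.11 to 0.12 and from -0.15 to -0.01. Fbl had the narrowest range of the 10 genes, 1.23-fold over the 8 libraries, while Nop56 and Nop58, which sit in the same particle, ranged over 1.63-fold and 1.78-fold.

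**Figure D2:**
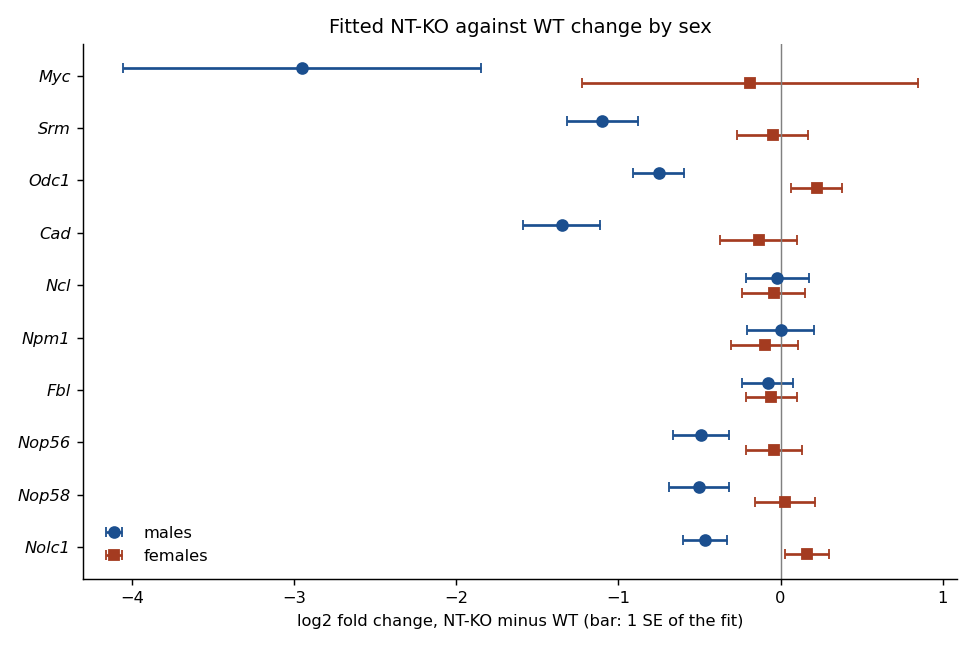
Fitted log2 fold change, NT-KO minus WT (x axis), of each of the 10 genes (y axis) in males (circles) and females (squares), with bars of 1 SE of the fit. In males 9 of the 10 values are below 0, from -2.95 for Myc to -0.02 for Ncl, and in females all 10 lie between -0.19 and 0.22.

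Counted over the set, 6 of the 10 genes had both male NT-KO libraries below both male WT libraries, namely Srm, Odc1, Cad, Nop56, Nop58 and Nolc1, where 19.2% of all 13117 tested genes did. None of the 10 had both above, where 19.6% of all genes did. These counts come from the libraries that chose the genes, so nothing is read from them. The median log2 fold change of the 10 in males was -0.50, against 0.01 over all tested genes.

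In females 0 of the 10 had both NT-KO libraries below both WT libraries, where 14.2% of all tested genes did, and 2 had both above, Odc1 and Nolc1, where 12.2% did. Their median log2 fold change was -0.05. It turned positive with WT replicate 1 of the females left out (0.03) and with NT-KO replicate 2 left out (0.09).

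The sexes were also set against each other within genotypes. In WT, both female libraries were below both male libraries for Srm, Odc1, Cad, Nop56, Nop58 and Nolc1, the 6 genes with both male NT-KO libraries below both male WT libraries, where 30.6% of all tested genes were so placed. Both comparisons share the male WT libraries. In NT-KO, both female libraries were above both male libraries for Odc1 and Nolc1, where 17.4% of all tested genes were, and below them for Ncl, where 16.9% were. Odc1 and Nolc1 were the 2 of the 10 whose groups were apart in opposite directions in the 2 sexes, as were 6.66% of all tested genes. The female minus male difference of the log2 fold changes was 1.05 ± 0.31 for Srm, 1.21 ± 0.33 for Cad, 0.97 ± 0.22 for Odc1 and 0.63 ± 0.19 for Nolc1. Myc gave 2.76 ± 1.49, which contains the male value that turned without male WT replicate 1.

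**Figure D3:**
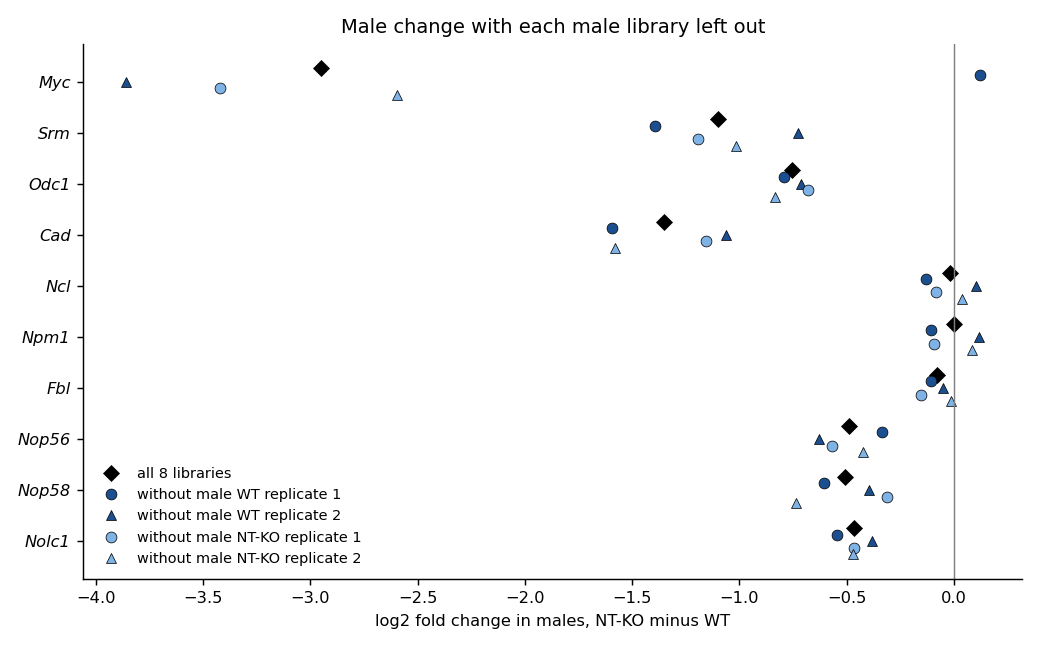
Log2 fold change in males, NT-KO minus WT (x axis), of each of the 10 genes (y axis) with all 8 libraries (diamonds) and with each male library left out (circles for replicate 1, triangles for replicate 2, dark for WT, light for NT-KO). Myc moves from -2.95 to 0.12 without male WT replicate 1, while Srm, Odc1, Cad, Nop56, Nop58 and Nolc1 stay below 0 in every fit.

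Myc and the other genes were not highest in the same male WT library. Srm, Odc1, Cad, Ncl, Npm1, Fbl, Nop58 and Nolc1 were higher in male WT replicate 2 than in replicate 1, and Myc and Nop56 were higher in replicate 1. Replicate 2 is the library with the highest ER chaperone and heat shock sums: Hspa5, the main chaperone of the ER, was at 2805 CPM there, 972 CPM in male WT replicate 1 and 363 to 582 CPM in the other 6. Ddit3, a transcription factor induced by ER stress, was at 29.5 CPM there and at 8.25 to 10.8 CPM in the other 7. The targets of ATF4 summed to 191 and 280 CPM in WT males and to 200.2 to 293 CPM elsewhere, and the median of their log2 deviations from the mean of the 8 libraries was -0.67 in male WT replicate 1 and -0.22 to 0.36 in the other 7. Clock genes summed to 667 and 743 CPM in WT males and to 807 to 964 CPM in the other 6. The median of their log2 deviations was -0.24 and -0.05 in WT males and -0.09 to 0.18 in the other 6. Single clock genes went both ways. Dbp, a clock output gene, was at 30.8 and 33.3 CPM in WT males and at 47.2 to 75.6 CPM in the others. Arntl, another clock gene, was higher in WT males, at 4.51 and 4.45 CPM against 0.589 to 2.07 CPM in the others. The part of these in the levels of the 10 genes was not tested. Srm and Cad had male log2 fold changes of -0.73 and -1.06 without male WT replicate 2, and of -1.40 and -1.59 when replicate 1 was left out instead.

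Across the 8 libraries, log2 CPM of Cad followed that of Srm (Pearson's r 0.95), Nop58 (0.95), Nolc1 (0.89) and Odc1 (0.86), and Srm followed Nolc1 at 0.92. Myc was closest to Nop56, at 0.86 over 8 libraries and 0.57 without male WT replicate 1. Without that library Myc was closest to Fbl instead, at 0.74, against 0.42 over 8 libraries. With Srm and Cad, Myc had an r of 0.24 and 0.33, which became -0.07 and -0.12 without male WT replicate 1, and 0.97 and 0.88 when replicate 2 was left out instead. Ncl and Npm1 followed each other (0.75), not Odc1 (-0.03 and -0.27). These are descriptions over 8 libraries that share 4 groups. The genes whose profile was most like the mean of the 6 nucleolar factors were Kat8, Ahsa2, Lbhd1, Akap17b and Atp2a2, all at an r of 0.97 to 0.98 over the 8 libraries. Of these, Atp2a2, the calcium pump of the ER, was at 205 and 288 CPM in WT males and at 102 to 115 CPM in the other 6 libraries. Ahsa2, a homolog of the Hsp90 co-chaperone Ahsa1, was at 31.5 and 39.3 CPM in WT males and at 18.0 to 21.5 CPM elsewhere.

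**Figure D4:**
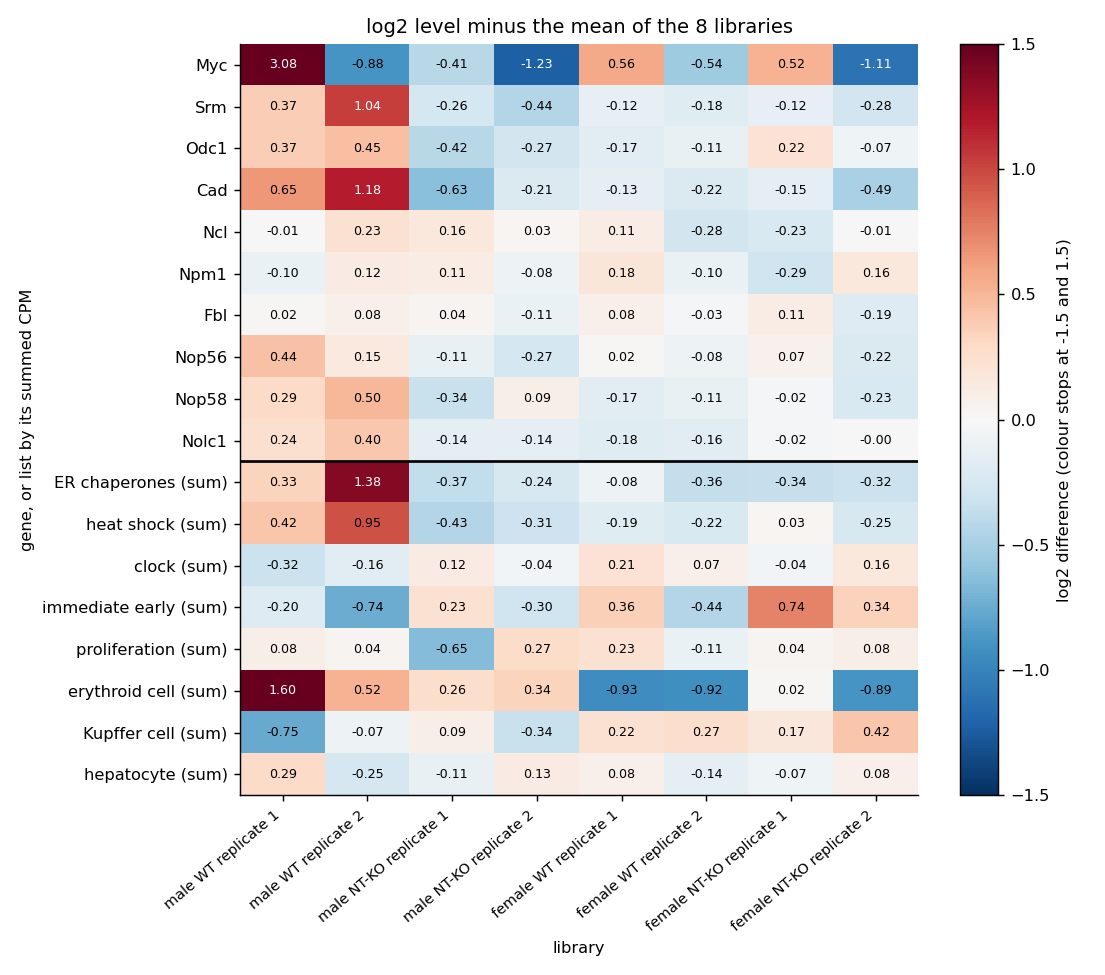
Log2 CPM of the 10 genes (upper rows) and log2 of the summed CPM of 8 lists of other genes (lower rows), each minus its mean over the 8 libraries (columns), with the value printed in each cell. Myc (3.08) and the erythroid markers are highest in male WT replicate 1, and Srm (1.04), Cad (1.18) and the ER chaperones in male WT replicate 2.

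The 211 other genes of ribosome assembly, nucleotide and polyamine metabolism and the Myc network were listed to see the pathway around the 10; 206 of them were tested. In males 17 of the 206 (8.25%) were lower and 7 (3.40%) were higher at an unadjusted p under 0.05 by edgeR's quasi-likelihood test, beside 5.5% and 6.03% of all tested genes. None passed a false discovery rate (FDR) of 0.05 by that test, where 0.0152% of all tested genes did, or by the likelihood ratio test, where 1.94% did. DESeq2 passed 1, Upp2, and 2.35% of all tested genes. Their median log2 fold change was -0.13 with 144 negative and 62 positive values, against a median of 0.01 over all tested genes. Both NT-KO libraries were below both WT libraries in 68 (33.0%) and above in 16 (7.77%), where 19.2% and 19.6% of all tested genes were.

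This split depended on scaling and on single libraries. Without TMM, on total counts alone, the median of all tested genes moved to 0.08, that of the 206 to -0.07, and the split at an unadjusted p under 0.05 turned to 4 lower and 8 higher, beside 3.82% and 8.38% of all tested genes. In 4 further fits, each male library was left out in turn. The median of the 206 was -0.11 without male WT replicate 1, beside 0.02 over all tested genes, and -0.12 without male WT replicate 2, beside 0.01. It was -0.08 without NT-KO replicate 1 of the males, beside -0.01, and -0.18 without NT-KO replicate 2, beside -0.01. The share of related genes that were lower was above that of all tested genes in 2 of these 4 fits and below it in 2. The median stayed negative in each of these fits, from -0.18 to -0.08 without a male library.

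In females the related genes had a median of 0.01, and 0 were lower and 1 higher at an unadjusted p under 0.05, beside 0.679% and 0.869% of all tested genes. The 1 was Gadd45a, a growth arrest gene induced by DNA damage and repressed by Myc, at 6.30 and 9.07 CPM in WT females and 13.6 and 11.7 CPM in NT-KO females (log2 fold change 0.72 ± 0.31, FDR 1 by the same test). No related gene passed an FDR of 0.05 in females by the quasi-likelihood test, the likelihood ratio test or DESeq2, where 0.00762%, 0.0839% and 0.0381% of all tested genes did. By list, those with the smallest unadjusted p included 3 assembly factors: Tsr1 of the small subunit was at 8.64 and 9.11 CPM in WT females and 10.7 and 11.3 CPM in NT-KO females (0.31 ± 0.23), Mdn1, the giant ATPase that releases factors from the large subunit, at 20.7 and 24.0 CPM against 16.4 and 18.3 CPM (-0.37 ± 0.17), and Bop1 at 18.2 and 24.5 CPM against 25.6 and 24.9 CPM (0.24 ± 0.20). Polr1b, a large subunit of RNA polymerase I, was at 19.5 and 20.2 CPM against 13.4 and 16.3 CPM (-0.42 ± 0.21). Gart, an enzyme of purine synthesis, was at 13.1 and 16.9 CPM against 20.8 and 19.9 CPM (0.44 ± 0.20), and Mri1 at 16.4 and 20.9 CPM against 15.6 and 12.9 CPM (-0.39 ± 0.22). The others of this kind, Naf1, Taf1a, Nol6, Mtap, Dpyd, Nme1, Adssl1 and Ran, lay between -0.32 and 0.38. All of these had an FDR of 1 by edgeR's quasi-likelihood test.

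**Figure D5:**
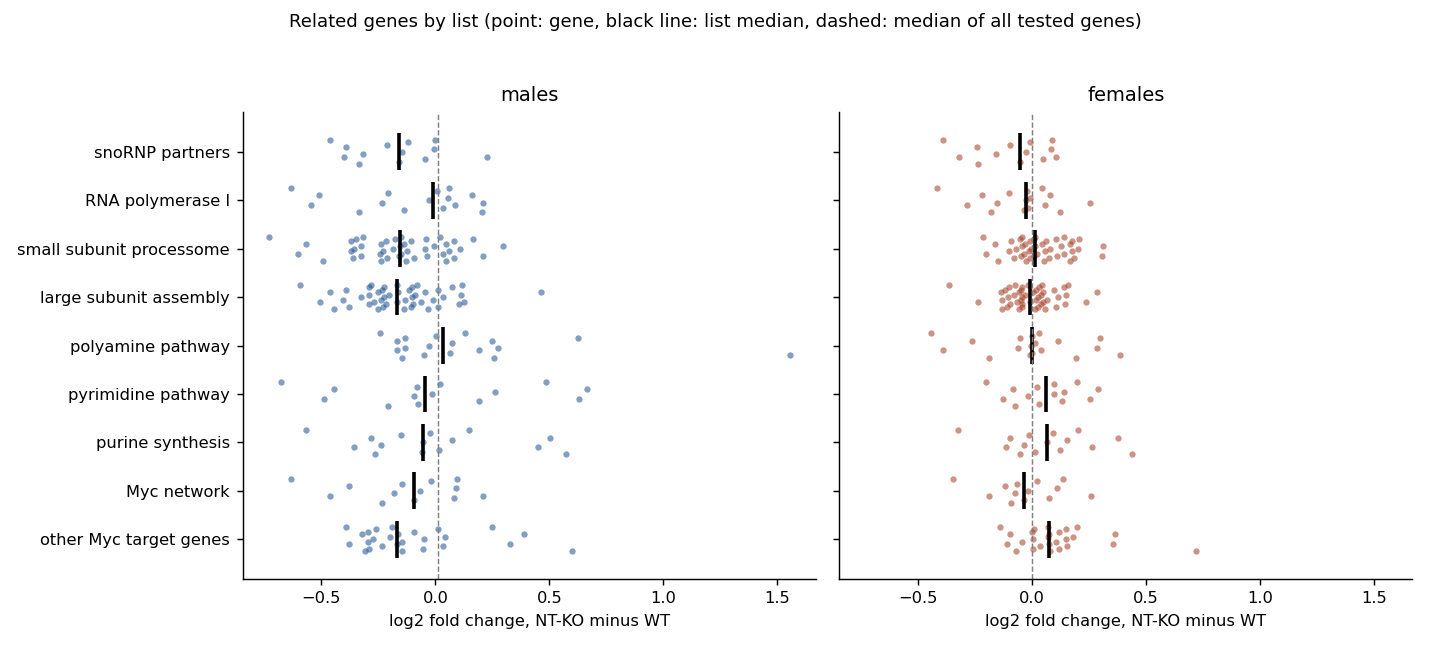
Log2 fold change, NT-KO minus WT (x axis), of the 206 related genes by list (y axis) in males (left) and females (right); each point is a gene, black lines are list medians and the dashed line is the median of all tested genes. The male medians of the small subunit, large subunit and snoRNP lists lie at -0.15, -0.17 and -0.16, and the polyamine list at 0.03.

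In males, counts per list at an unadjusted p under 0.05 stand beside 5.5% of all tested genes lower and 6.03% higher. Of the 13 other snoRNP proteins and their assembly factors, 12 had a negative male fold change, 3 (23.1%) were lower at an unadjusted p under 0.05 and 0 higher. Their median was -0.16, and on total counts alone it was -0.09, with 9 negative values, 0 lower and 0 higher. Snu13, a shared core protein of the box C/D snoRNP and the spliceosome, was at 20.1 and 26.9 CPM in WT males and 16.1 and 18.0 CPM in NT-KO males, and at 24.2 and 24.3 CPM in WT females and 17.6 and 19.4 CPM in NT-KO females. Its log2 fold change was -0.46 ± 0.18 in males and -0.39 ± 0.18 in females (FDR 0.385 and 1 by the quasi-likelihood test), with the same sign in both sexes. Ruvbl1, an ATPase that helps assemble snoRNPs, gave -0.39 ± 0.15 in males and -0.03 in females.

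Of the 44 tested genes of the small subunit processome, 33 had a negative male value, 4 (9.09%) were lower at an unadjusted p under 0.05 and 0 higher, and on total counts alone 29 were negative, 1 lower and 0 higher. Rrp12, which acts in the maturation and export of both subunits, was at 14.3 and 14.1 CPM in WT males and 8.88 and 8.25 CPM in NT-KO males, a log2 fold change of -0.73 ± 0.20 (FDR 0.268 by the quasi-likelihood test), and it stayed between -0.78 and -0.68 without each library. Imp4, a U3 snoRNP protein, gave -0.37 ± 0.14. Of the 47 genes of large subunit assembly, 38 were negative, 5 (10.6%) lower and 0 higher, and on total counts alone 34 were negative, 1 lower and 0 higher. Nop16 was at 33.6 and 43.2 CPM in WT males and at 25.5 CPM in both male NT-KO libraries (-0.59 ± 0.17, FDR 0.268 by the quasi-likelihood test), and Lsg1, a GTPase of late maturation in the cytoplasm, gave -0.39 ± 0.15. In females these 2 lists had medians of 0.01 and -0.01, with 0 genes past the unadjusted threshold.

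RNA polymerase I and its factors had 8 negative and 8 positive male values among 16 genes, with a median of -0.01. Both NT-KO libraries were below both WT libraries in 4 and above in 1, where 19.2% and 19.6% of all tested genes were. The 2 (12.5%) lower at an unadjusted p under 0.05 were Polr1e (-0.63 ± 0.24) and Znrd1 (-0.55 ± 0.23), both polymerase subunits, and 0 were higher, and on total counts alone 0 were lower. Without male WT replicate 2 their values were -0.35 and -0.17. In females the list had a median of -0.03 and 0 genes past the threshold.

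In the polyamine pathway, 8 of 18 male values were negative and 10 positive, 0 were lower and 2 higher at an unadjusted p under 0.05, and on total counts alone 6 were negative, 12 positive, 0 lower and 2 higher. The 2 were Azin2, an antizyme inhibitor that frees ornithine decarboxylase, at 1.03 and 1.05 CPM in WT males and 4.01 and 2.11 CPM in NT-KO males (1.55 ± 0.49, FDR 0.308 by the quasi-likelihood test), and Mri1, an enzyme of methionine salvage, at 12.8 and 12.0 CPM in WT males and 22.5 and 15.7 CPM in NT-KO males (0.63 ± 0.22). Azin2 is near the filter of 1 CPM. In the pyrimidine pathway, 1 of 14 was lower and 2 higher, and on total counts alone 1 and 3. Upp2, a liver uridine phosphorylase that breaks uridine down, was at 542 and 495 CPM in WT males and 746 and 858 CPM in NT-KO males (0.63 ± 0.18, FDR 0.277 by the quasi-likelihood test), and Uck2, a kinase of uridine salvage, was at 15.9 and 10.7 CPM against 7.38 and 9.25 CPM (-0.68 ± 0.22). For the enzymes of purine synthesis, 1 of 15 was lower and 2 higher, and the same counts came out on total counts alone. Gmps, which makes GMP, was at 66.1 and 71.1 CPM in WT males and 40.9 and 51.6 CPM in NT-KO males (-0.57 ± 0.17), and Prpsap1 at 61.4 and 51.8 CPM against 97.3 and 63.1 CPM (0.50 ± 0.21). In females none of the 47 genes of these 3 lists passed the unadjusted threshold, and their medians were 0.00, 0.06 and 0.07.

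Of 26 other Myc target genes, 19 had a negative male value (17 on total counts alone), 0 were lower at an unadjusted p under 0.05 and 1 was higher, Tert, the catalytic subunit of telomerase, at 6.52 and 5.26 CPM in WT males and 7.40 and 10.5 CPM in NT-KO males (0.60 ± 0.22). Hspe1, the co-chaperonin of mitochondria and itself a heat shock protein, was at 198 and 256 CPM in WT males and 175 and 174 CPM in NT-KO males (-0.38 ± 0.18), and at -0.19 without male WT replicate 2. In females 20 of the 26 values were positive, with a median of 0.07. The list includes Gadd45a, which Myc represses, so these counts of signs mix targets of opposite expected direction.

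Some of the 10 genes share sequence with other loci, and the deposited counts do not state how reads with several matches were treated. Of the distinct 50-base stretches in the annotated transcripts of Odc1 and of Npm1, 24.3% also occur in transcripts of other genes. The share was 19.7% for Fbl, where the other genes include Tulp4, and 18.6% for Nop56. It was 2.01% for Srm, 2.00% for Ncl and 1.67% for Nop58, and Myc, Cad and Nolc1 had no such stretch. Exons of Ncl, Nop56 and Nop58 overlap annotated snoRNAs hosted by these genes. The levels of Odc1, Npm1, Fbl and Nop56 are uncertain to that extent.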

How the data were processed

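The deposited table holds raw read counts per gene for 8 liver libraries, not normalized. Per the labels and the methods, the authors checked reads with FastQC, trimmed them with cutadapt, aligned them with STAR 2.6.1a to GRCm38 and counted them with featureCounts on the Ensembl annotation; how strand and reads with several matches were treated is not given in the sources used here. All columns were used. Symbols came from GENCODE vM21, which matched 49412 of 49671 IDs.

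The filter asked for 1 CPM or more in 2 or more libraries and removed mitochondrial, miRNA and rRNA genes, which left 13117 genes to test. edgeR 4.0.16 in R 4.3.3 fitted 1 mean per group over all 8 libraries with TMM scaling; its quasi-likelihood test was used with Benjamini-Hochberg adjustment, and the SE is the log2 fold change divided by the square root of F. The script was tested on simulated data. Log2 CPM used a prior count of 2. With 2 libraries a group, a two-sided exact permutation test cannot go below p = 0.333, so none was run. Alternatives were the likelihood ratio test, DESeq2 1.42.0, RLE and library size scaling, filters, the replicate block, each sex alone, and leaving out each library.

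The 10 genes and all lists (related genes, context genes, cell type markers) were chosen with earlier results of these data known. The genes named besides the 10 are the whole Myc network list, the 2 with the smallest p of each other related list and sex, and the 5 most alike in profile. Genes of the context and check lists (Hspa5, Creld2, Ddit3, Dbp, Arntl, Fos, Xist and Lbr) are named as examples chosen after their values were seen. Promoters are RefSeq's for GRCm38.p6, and 50-base stretches came from GENCODE transcripts.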

Additional observations from a re-analysis of the deposited data

Results flagged for a closer look

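The 6 results below are given because the NT-KO libraries lay apart from the WT libraries in both sexes, in opposite directions. The separation itself was not tested, and 6.66% of all 13117 tested genes were separated in opposite directions in the 2 sexes. All 6 are among the 10 genes or the related genes named for the smallest p of a list, both chosen from these data. Their number therefore cannot be set against that share. Odc1 and Nolc1 are among the 10 genes and are given with no test. For the other 4, edgeR's quasi-likelihood test of the female minus male difference of log2 fold changes found none past the threshold, with FDR values of 0.573 to 0.696.

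Odc1 differed between the sexes by 0.97 on the log2 scale, from -0.75 in males to 0.22 in females, and Nolc1 by 0.63, from -0.46 to 0.16. Bop1, a large subunit assembly factor, differed by 0.74, from -0.51 to 0.24. For these 3, NT-KO was the lower group in males and the higher one in females. The opposite held for Mri1 of methionine salvage, with a difference of -1.02, from 0.63 in males to -0.39 in females, for Prpsap1 of purine synthesis, with -0.60, from 0.50 to -0.10, and for Taf1a, a subunit of an RNA polymerase I factor, with -0.49, from 0.21 to -0.29.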

How the results depend on the processing

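Genes called in male NT-KO against WT numbered 2 by the quasi-likelihood test, 205 by the likelihood ratio test, 218 by DESeq2, 667 with no filter beyond 1 count, 6 with filterByExpr, 4 with library size only, and 2 to 27 with each library left out, the most without male WT replicate 1. In females 1 gene was called, against 11, 5 and 172 by the first 3 of these, 0 with the libraries of that sex alone and 0 whichever library was left out. For the difference between the sexes the counts were 2, then 46 by the likelihood ratio test, 62 by DESeq2, 552 with no filter and 1 to 7 with each library left out. Related genes at an unadjusted p under 0.05 numbered 24 in males, 12 with the male libraries alone, 12 with library size only and 8 to 31 with each library left out; in females they numbered 1, 4 with the female libraries alone and 1 to 3 with each library left out. These counts of related genes merge lower and higher genes, and the share of all tested genes past the same threshold also moved between fits. In males 3.82% of all tested genes were lower and 8.38% higher with library size only, against 5.5% and 6.03% in the main fit. No such share is given for the libraries of each sex alone. Nothing about the related genes is therefore read from these counts. The median log2 fold change of the 10 genes ran from -0.60 to -0.44 in males and from -0.11 to 0.091 in females with each library left out. Where a group was left with 1 library, it is assumed to vary like the others. The cause of these shifts was not tested.

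Of 480 values of related genes named in the text, 477 kept their direction and their side of the threshold. This count says little of steadiness. None of these genes passed the threshold in the main fit, and leaving out a library of the other sex hardly moves a value. The size of a change could still move: Adssl1 in females ran from 0.029 to 0.84 with each library left out. Nme1 in females ranged from -0.39 to 0.017 with each library left out, turning positive without female WT replicate 1. Azin2 in males passed the threshold with no filter (log2 fold change 1.55, FDR 3.45e-04) and Upp2 in males with DESeq2 (0.63, FDR 0.0318).

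Replicate numbers shared by groups were fitted as a replicate block within sex. Within a sex, deviations of libraries with the same number hardly correlated over 13117 genes (-0.0067 in males and 0.023 in females). This correlation is taken over all genes, so it cannot show whether a smaller set of genes moved together by number. Myc, Fos and Cish had their higher level under the same replicate number in every group. Cish was named for its likeness to Myc over these libraries, and Fos after its values were seen. No share of all tested genes with this pattern is given, so nothing is read from it. Whether libraries of the same number share more than that number was not tested. With the block, 3 genes were called in males, 0 in females and 2 for the difference. Related genes at an unadjusted p under 0.05 numbered 16 in males and 0 in females. No share of all tested genes is given for that fit, so nothing about the related genes is read from the 16.

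With 2 libraries a group, a difference that depends on 1 library cannot be told apart from one of the group, and strand, multiple matches and time of collection were not given. Counts of the 10 genes, 101 or more in every library, put little counting error on their levels.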

Other observations

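Marker genes of other cells than those named in the report are given here as summed CPM over the 8 libraries. Cholangiocyte markers ran from 29.0 CPM in male NT-KO replicate 1 to 65.2 CPM in female NT-KO replicate 1, endothelial markers from 111 CPM in male WT replicate 2 to 198 CPM in female WT replicate 2, and stellate cell markers from 86.8 to 112 CPM. B lymphocyte markers were at 55.4 CPM in male NT-KO replicate 2 and at 4.29 to 24.4 CPM in the others, T lymphocyte markers at 2.79 to 5.47 CPM, and neutrophil markers at 1.16 to 7.69 CPM. Of 6 pancreatic acinar markers, 4 or 5 were at 0 in each library, and their sum did not pass 0.771 CPM.

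Creld2, an ER stress gene, was at 398 CPM in male WT replicate 2, at 71.3 CPM in male WT replicate 1 and at 15.9 to 43.9 CPM in the other 6 libraries. Lbhd1 and Akap17b, both among the 5 genes most like the nucleolar factors in profile, were at 9.33 and 17.6 CPM in male WT replicate 2, at 5.25 and 10.7 CPM in male WT replicate 1, and at 2.75 to 3.80 CPM and 4.60 to 7.80 CPM in the other 6.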
